A study of Homo sapiens with 6 samples.

Results

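The proteasome is the cell's main machine for destroying ubiquitin-tagged proteins, and 43 of its subunit and assembly genes were read here in 786-O cells after an shRNA against PLEKHO1. Members were taken by name: a probe set entered when the array's annotation gave exactly 1 gene symbol made of PSM, a letter from A to G and a digit, leaving out PSME3. That rule found 45 of the 18132 genes tested, measured by 109 probe sets. The recombination factor PSMC3IP and the PSME3-interacting protein PSME3IP1 carry such names without being proteasome subunits, and they are given apart from the other 43 genes. Of 47 listed proteasome genes, PSMA6, PSMC5, PSMD7 and PSMD13 were not analysed here.

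The study set 3 arrays of cells given an shRNA targeting PLEKHO1 (shPLEKHO1) beside 3 arrays of cells labelled shNC and control. A short hairpin RNA (shRNA) lowers the messenger RNA it matches, and here it was delivered by lentivirus. All 6 samples are 786-O cells, an established human line derived from a renal cell carcinoma, grown in the same medium with fetal bovine serum. The labels give neither the hairpin's sequence nor how many hairpins were used, and their treatment note names the PLEKHO1 shRNA alone. They also do not state whether replicates came from separate cultures, and a p-value here covers array-to-array spread that may be technical. In bulk RNA, fewer cells of a type and less RNA per cell cannot be told apart.

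A value is the deposited linear intensity of a probe set, and each gene is represented by its brightest probe set over the 6 arrays. Log2 differences are taken as shPLEKHO1 minus shNC after quantile normalization of log2(intensity + 1), and are given ± SE with n = 3 arrays in each group. "Rose", "fell" and "changed" mean an adjusted p under 0.05 in limma, adjusted over all 18132 genes.

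In the working proteasome a barrel of stacked rings cuts proteins inside a closed chamber. The outer alpha rings form the gate, and the inner beta rings carry the proteases: PSMB6 cuts after acidic residues, PSMB7 after basic and PSMB5 after hydrophobic ones. Interferon-treated and immune cells can build the chamber instead with PSMB9, PSMB10 and PSMB8, which take the places of PSMB6, PSMB7 and PSMB5 in this immunoproteasome. A cap binds the barrel's ends: its base holds a ring of ATPases (the PSMC genes) that unfold substrates, and its lid removes the ubiquitin chains. Renal cancer cells, like other dividing cells, depend on this machine, and the transcription factor NFE2L1 is known to raise its genes together when proteasome activity is short.

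Targeting of PLEKHO1 was modest on these arrays. PLEKHO1 averaged 108 ± 9.42 with shPLEKHO1 and 135 ± 8.24 with shNC (SD, n = 3 each; log2 difference of -0.32 ± 0.08, adjusted p = 0.0123). All 7 measured marker genes of a renal epithelial line were above the median brightness, and 3 of them rose and 3 fell, PAX8 among the falls (354 with shPLEKHO1 and 424 with shNC). Of 9 measured markers of leukocytes, endothelium and fibroblasts 0 changed. The dimmest, the leukocyte gene PTPRC, averaged 6.82 with shPLEKHO1 and 6.39 with shNC. This was below a background probe set with 16 G or C bases at 13.9 with shPLEKHO1 and 13.3 with shNC. COL3A1 was below it too, and the other markers were above it, up to VWF at 68.9 with shPLEKHO1 and 78.4 with shNC. Median intensity per array lay between 55.7 and 57.1. The 5' control probe set for 28S ribosomal RNA averaged 2153 ± 23.1 with shPLEKHO1 and 1026 ± 22.3 with shNC (SD, n = 3 each), and its part in the results below was not tested.

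Proteasome genes did not move as a block. Of the 43 genes, 12 rose, 7 fell and 24 did not pass, so 44.2% changed, where 34.1% of all genes tested did. The median log2 difference was 0.09 over the 43 genes and 0.01 over all genes tested. Rises were called in 18.1% of all genes and falls in 16.0%. The probe sets of proteasome genes were bright: 33 of the 43 were among the 1814 brightest genes of the table, and 16 of these 33 changed (48.5%), where 56.1% of the 1814 did, a comparison added after the values were seen. Of these 33 genes 11 rose (33.3%) and 5 fell (15.2%), where 32.9% of the 1814 rose and 23.2% fell. For rises the bright proteasome genes were thus near the share of bright genes in general, and for falls below it. The share of falls rests on 5 genes, and its difference was not tested.

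Few proteasome genes changed by much: 3 of the 19 did so by at least 1.5-fold (PSMB6, PSMD12 and PSMF1), and the other 16 by less. The values of the groups did not overlap on the log2 scale in 30 of the 43 genes, where 44.9% of all genes tested had no overlap. The share without overlap among bright genes alone was not taken. All 7 falls kept their call under each of the 14 alternative settings. Of the 12 rises, 5 did (PSMB5, PSMC4, PSMD2, PSMD12 and PSMG2), and the number of rises was 6 without shNC replicate 2. The falls PSMA5, PSMB6, PSMD4 and PSMG3 and the rise PSMG2 had 1 probe set each. The alternative that averages a gene's probe sets therefore left their values unchanged.

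**Figure D1:**
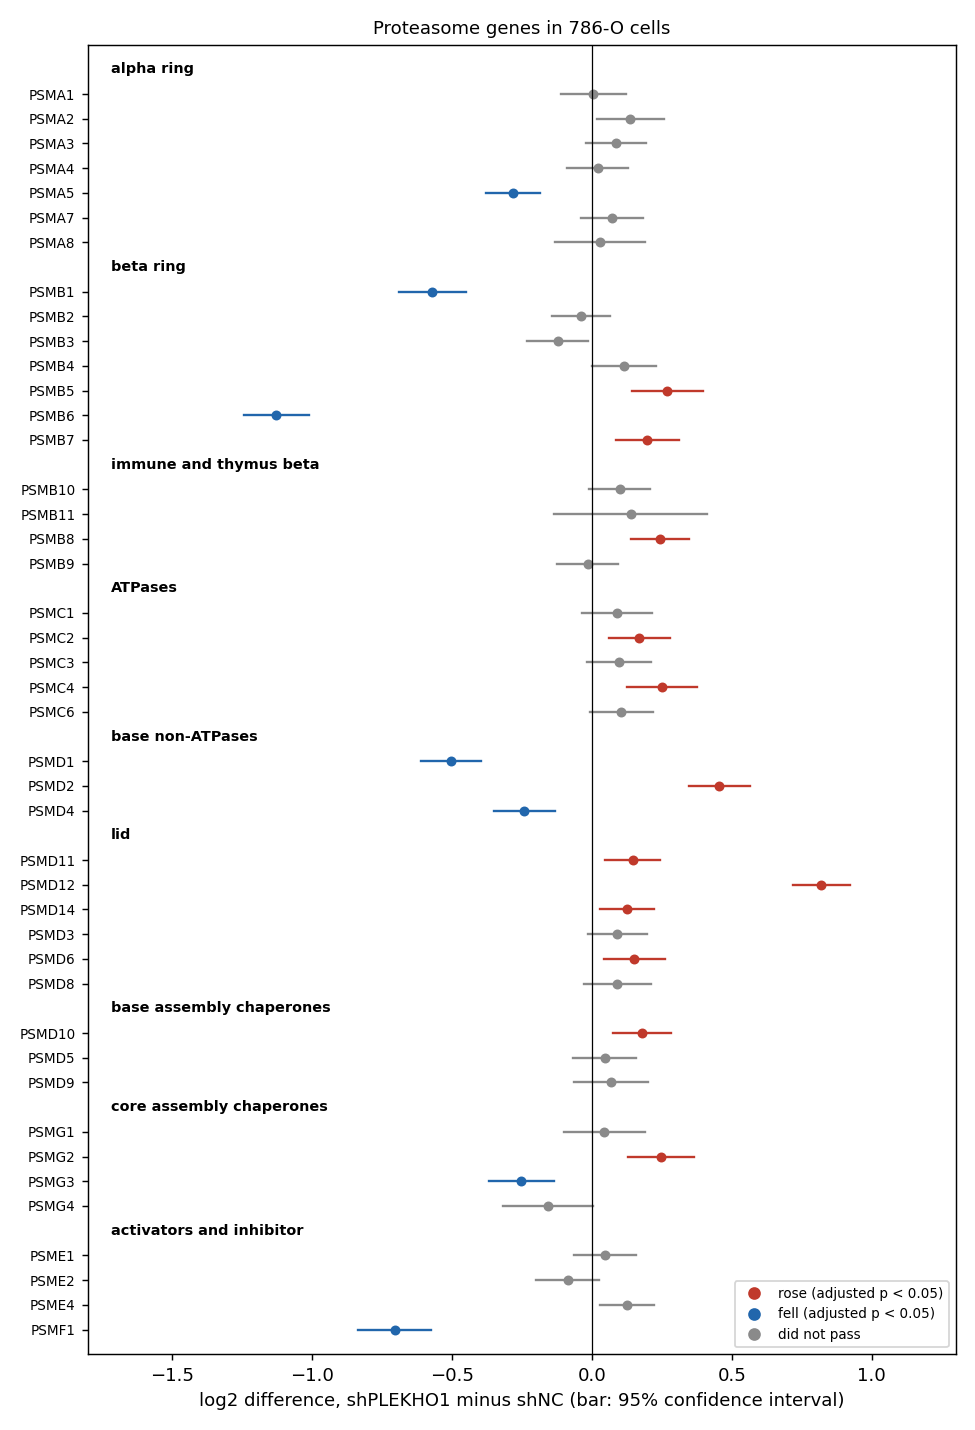
Log2 difference (shPLEKHO1 minus shNC, x axis) of the 43 measured proteasome genes, grouped by their place in the machine, with 95% confidence intervals from limma and n = 3 arrays per group. PSMB6 lies farthest to the left at -1.13 and PSMD12 farthest to the right at 0.82, while most genes sit within 0.25 of 0.

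Promoters of the largest rise and of the largest fall that the RefSeq promoter table (GRCh38.p14) held are shown to place the results beside known regulatory letters. Each line gives the 250 bases before the annotated start of transcription, 5' to 3' on the gene's strand, with 2 motifs in capitals on either strand: TGACNNNGC, the antioxidant response element that NFE2L1 and NFE2L2 bind with small MAF proteins, and CCGGAAG, bound by ETS family factors. PSMD12 has its window at chr17:67366578-67366827 (minus strand) and PSMF1 at chr20:1118352-1118601 (plus strand, 1 of 2 windows for this gene).
PSMD12: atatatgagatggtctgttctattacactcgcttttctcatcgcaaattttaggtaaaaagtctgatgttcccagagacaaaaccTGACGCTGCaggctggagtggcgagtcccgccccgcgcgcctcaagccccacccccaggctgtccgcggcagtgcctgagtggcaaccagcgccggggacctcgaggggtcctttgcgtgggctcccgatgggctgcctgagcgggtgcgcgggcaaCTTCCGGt
PSMF1: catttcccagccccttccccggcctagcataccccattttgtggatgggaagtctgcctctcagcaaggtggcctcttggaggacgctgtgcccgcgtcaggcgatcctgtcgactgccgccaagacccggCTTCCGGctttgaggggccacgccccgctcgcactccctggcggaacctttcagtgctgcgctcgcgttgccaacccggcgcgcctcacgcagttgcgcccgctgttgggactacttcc
The PSMD12 window held 1 match to TGACNNNGC and 1 to CCGGAAG, read here as CTTCCGG on the printed strand, and these do not overlap. The PSMF1 window held 1 match to CCGGAAG, again read as CTTCCGG. This window was printed because it held a match, and the other PSMF1 window held neither of these 2 motifs. Over the 37 measured proteasome genes with an entry in the table, TGACNNNGC matched in 12 (32.4%), where 13.2% of all 27305 genes with an entry had a match. CCGGAAG matched in 10 of the 37 (27.0%), where 10.2% of all genes did, and the CCAAT box in 16 (43.2%), where 37.0% of all genes did. Among these 37 genes TGACNNNGC matched in 2 of 11 that rose, 0 of 3 that fell and 10 of 23 that did not pass. A match describes letters only, and binding was not measured.

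The inner beta ring held the sharpest contrast, between its 3 proteases. PSMB6, the protease that cuts after acidic residues, read 784, 872 and 821 on the shPLEKHO1 arrays, against 1931, 1741 and 1741 on the shNC arrays. The highest shPLEKHO1 array was far below the lowest shNC array. PSMB6 was 2.18-fold lower (log2 difference -1.13 ± 0.05, adjusted p = 4.12e-06), the largest change among the 43 genes, and 1 probe set measured it. PSMB5, the protease that cuts after hydrophobic residues and the main target of the drug bortezomib, read 1869, 2083 and 1937 with shPLEKHO1, against 1725, 1527 and 1599 with shNC. All shPLEKHO1 arrays were higher, by a much smaller margin. PSMB5 was 1.21-fold higher (0.27 ± 0.05, adjusted p = 0.00616), and all 5 of its probe sets rose, by 0.27 to 0.39.

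PSMB7, which cuts after basic residues, read 2500, 2673 and 2596 with shPLEKHO1, against 2348, 2161 and 2294 with shNC. The groups did not overlap, although the lowest shPLEKHO1 array and the highest shNC array were close. PSMB7 was 1.15-fold higher (0.20 ± 0.05, adjusted p = 0.0144). Its 3 bright probe sets rose and its 2 dim ones, near an intensity of 35 or below, were at -0.00 and -0.04. The call was lost without shNC replicate 2 (adjusted p = 0.0576) and with the mean of all its probe sets (log2 difference of 0.12, adjusted p = 0.0921).

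**Figure D2:**
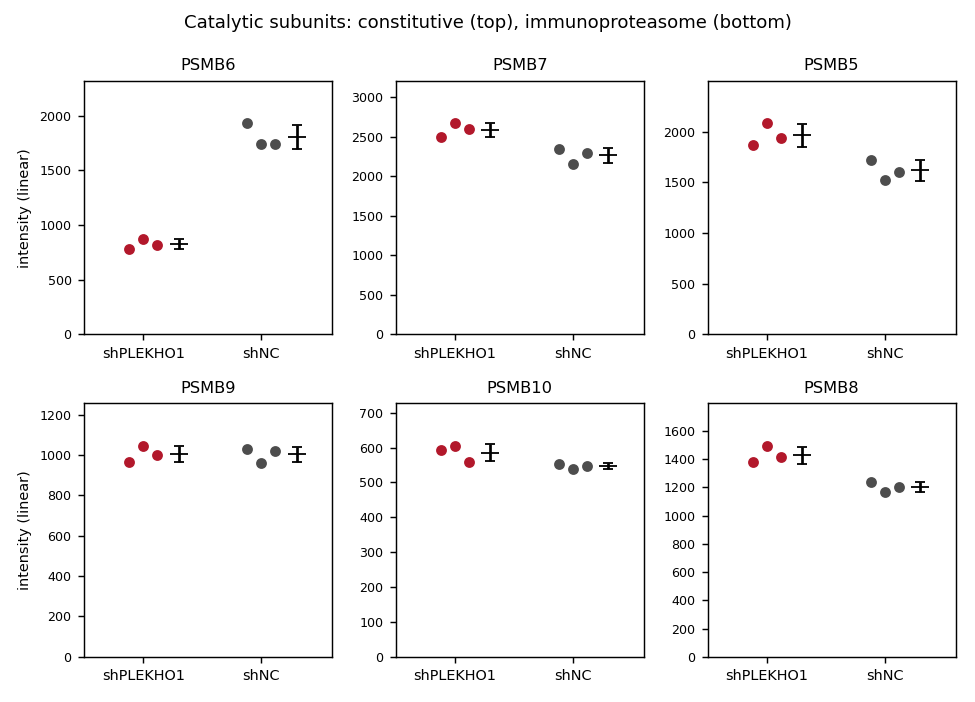
Linear intensity (y axis, from 0) of the 6 catalytic beta subunits on each array, shPLEKHO1 left and shNC right, with mean and SD (n = 3 arrays per group) beside the points. The upper row holds the constitutive proteases and the lower row the immunoproteasome subunit that replaces each. PSMB6 stands out with 784 to 872 in shPLEKHO1 cells and 1741 to 1931 in shNC cells, while PSMB9 below it overlaps between the groups.

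None of the 3 immunoproteasome subunits fell, and 1 rose. PSMB9, which replaces PSMB6, read 965, 1046 and 1002 with shPLEKHO1, against 1028, 960 and 1022 with shNC. These groups overlapped fully. Its log2 difference was -0.01, with a 95% confidence interval from -0.12 to 0.10, and none of its 3 probe sets passed. PSMB10, which replaces PSMB7, read 592, 605 and 560 with shPLEKHO1, against 553, 538 and 548 with shNC. All 3 of its shPLEKHO1 values were higher, but the difference did not pass (0.10 ± 0.05, adjusted p = 0.158).

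PSMB8, which replaces PSMB5, read 1378, 1495 and 1413 with shPLEKHO1, against 1238, 1170 and 1204 with shNC. The groups were apart on every array. PSMB8 was 1.18-fold higher by its brightest probe set (0.24 ± 0.05, adjusted p = 0.00378). Its next probe set, nearly as bright (1121 with shPLEKHO1 and 1047 with shNC), was at 0.08 and did not pass, and the third was dim, so the mean of its probe sets was at 0.09 (adjusted p = 0.166). Within each array, PSMB6 shifted against PSMB9 by -1.13 on the log2 scale, PSMB7 against PSMB10 by 0.09 and PSMB5 against PSMB8 by 0.03. Unlike the log2 differences, these shifts were taken from log2(intensity + 1) without quantile normalization. These pairs were chosen after their values were seen. An exact two-sided permutation test over the arrays gave p = 0.1 for PSMB6 against PSMB9, the smallest p that 3 against 3 arrays allow, and 0.2 and 0.4 for the other pairs (adjusted over 4 relations, 0.2, 0.267 and 0.4).

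Of the structural beta subunits, PSMB1 changed. It read 3358, 3681 and 3580 with shPLEKHO1, against 5613, 5155 and 5120 with shNC. These groups were also well apart. PSMB1 was 1.48-fold lower (-0.57 ± 0.05, adjusted p = 9.69e-05), and both of its probe sets fell, the other by 0.67 on the log2 scale. PSMB2 (-0.04), PSMB3 (-0.12) and PSMB4 (0.11) did not pass, with adjusted p between 0.0874 and 0.580. In all, 2 of the 7 constitutive beta genes rose and 2 fell, and the ring's median log2 difference was -0.04. Thus 57.1% of the ring's genes were called, where 34.1% of all genes tested and 56.1% of the 1814 brightest genes were. PSMB11, a beta subunit of the thymus, read 9.56 to 12.5 with shPLEKHO1 and 8.92 to 11.5 with shNC, below the background probe set named above, so no fold is given.

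By brightest probe sets, the alpha ring had a single change and a median log2 difference of 0.03. Of its 7 measured genes 1 fell and 0 rose (14.3% called, where 34.1% of all genes tested were). The 5 others with a bright probe set lay between 0.01 (PSMA1) and 0.14 (PSMA2) on the log2 scale, with PSMA3, PSMA4 and PSMA7 between. With the mean of all probe sets, PSMA1 and PSMA3 rose. Adjusted p of these 5 genes ran from 0.0749 to 0.957. PSMA5 was the exception, at 1849, 1860 and 1864 with shPLEKHO1, against 2343, 2207 and 2170 with shNC. Its shPLEKHO1 arrays were almost equal and all below the shNC arrays. PSMA5 was 1.22-fold lower (-0.28 ± 0.04, adjusted p = 0.00125), measured by 1 probe set. PSMA8, an alpha subunit of the testis, read 8.74 to 9.66 with shPLEKHO1 and 8.11 to 9.79 with shNC, below the background probe set.

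In the cap, 7 of the 14 measured subunit genes of base and lid rose and 2 fell (64.3% called), with a median log2 difference of 0.12. Of the 18 genes of the core 3 rose and 3 fell (33.3% called). Both shares stand beside 34.1% of all genes tested and 56.1% of the 1814 brightest genes, and the difference between core and cap was not tested. The large scaffold subunits PSMD1 and PSMD2, which hold the base and dock ubiquitin receptors and shuttle factors, went opposite ways. PSMD2 read 3236, 3383 and 3183 with shPLEKHO1, against 2502, 2301 and 2379 with shNC. It was 1.37-fold higher (0.46 ± 0.05, adjusted p = 0.000194), and all 3 of its probe sets rose. PSMD1 read 995, 1008 and 979 with shPLEKHO1, against 1461, 1322 and 1405 with shNC. It was 1.42-fold lower (-0.50 ± 0.05, adjusted p = 0.000103), and both of its probe sets fell. For each scaffold gene the groups lay well apart. Within each array PSMD1 shifted against PSMD2 by -0.94 on the log2 scale, again without quantile normalization (exact permutation p = 0.1, the smallest possible here, and 0.2 adjusted over the same 4 relations). PSMD4, the ubiquitin receptor of the base, read 1095, 1182 and 1095 with shPLEKHO1, against 1408, 1292 and 1290 with shNC. It was 1.18-fold lower (-0.24 ± 0.05, adjusted p = 0.00496) without overlap, by 1 probe set.

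The 5 measured ATPases all lay above 0, between 0.09 (PSMC1) and 0.25 (PSMC4), with a median of 0.10. Of all 18132 genes tested, 9719 lay above 0. The ATPases held 2 rises (40% called, where 34.1% of all genes tested were). PSMC4 read 352, 397 and 351 with shPLEKHO1, against 309, 310 and 304 with shNC. The shPLEKHO1 arrays spread more, but none reached down to the shNC values. It was 1.19-fold higher (0.25 ± 0.05, adjusted p = 0.00785), and both probe sets rose. PSMC2 read 1766, 1870 and 1724 with shPLEKHO1, against 1627, 1541 and 1554 with shNC. By this probe set it was 1.12-fold higher (0.17 ± 0.05, adjusted p = 0.0245), without overlap. A much dimmer probe set of PSMC2 fell. PSMC1, PSMC3 (0.10) and PSMC6 (0.10) did not pass.

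The lid's 6 measured genes all lay above 0, as did 9719 of all 18132 genes tested, and their median log2 difference was 0.14. Of the 6 genes 4 rose (66.7% called, where 34.1% of all genes tested and 56.1% of the 1814 brightest were). PSMD12, a structural lid subunit, read 1756, 1824 and 1778 with shPLEKHO1, against 1014, 988 and 1002 with shNC. The arrays of each group were close together and the groups far apart. PSMD12 was 1.77-fold higher (0.82 ± 0.04, adjusted p = 8.29e-06), the largest rise of the 43 genes. Of its 4 probe sets 3 rose, by 0.66 to 0.88, and 1 was at 0.04 and did not pass. The other rises in the lid were slight. PSMD6 read 1185, 1197 and 1228 with shPLEKHO1, against 1143, 1027 and 1061 with shNC (0.15 ± 0.05, adjusted p = 0.0382). PSMD11 read 1334, 1388 and 1364 with shPLEKHO1, against 1258, 1214 and 1222 with shNC (0.15 ± 0.04, adjusted p = 0.0311). PSMD14, the protease that clips ubiquitin chains off the substrate, read 1539, 1572 and 1557 with shPLEKHO1, against 1461, 1391 and 1387 with shNC (0.13 ± 0.04, adjusted p = 0.0479). Neither of the 2 probe sets of PSMD14 passed when every probe set was tested on its own. No array of these 3 genes crossed over to the other group's range. PSMD3 and PSMD8 were each at 0.09 and did not pass by their brightest probe sets.

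Those small rises had calls near the threshold, which were often lost with 1 array fewer. With 1 array left out, the log2 difference ranged from 0.134 to 0.155 for PSMD11 and from 0.124 to 0.129 for PSMD14. PSMD11 (adjusted p from 0.0642 to 0.0866) and PSMD14 (0.0811 to 0.119) lost their calls when any 1 of the 6 arrays was left out. PSMC2 lost it without each array but shPLEKHO1 replicate 3 (0.0532 to 0.0753). PSMD6 lost it without shNC replicate 2, shNC replicate 3, shPLEKHO1 replicate 1 or shPLEKHO1 replicate 3 (0.0863 to 0.122). PSMD11, PSMD14 and PSMD6 also lost it when arrays were centred on their medians in place of quantile normalization (0.0676, 0.0824 and 0.0744).

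**Figure D3:**
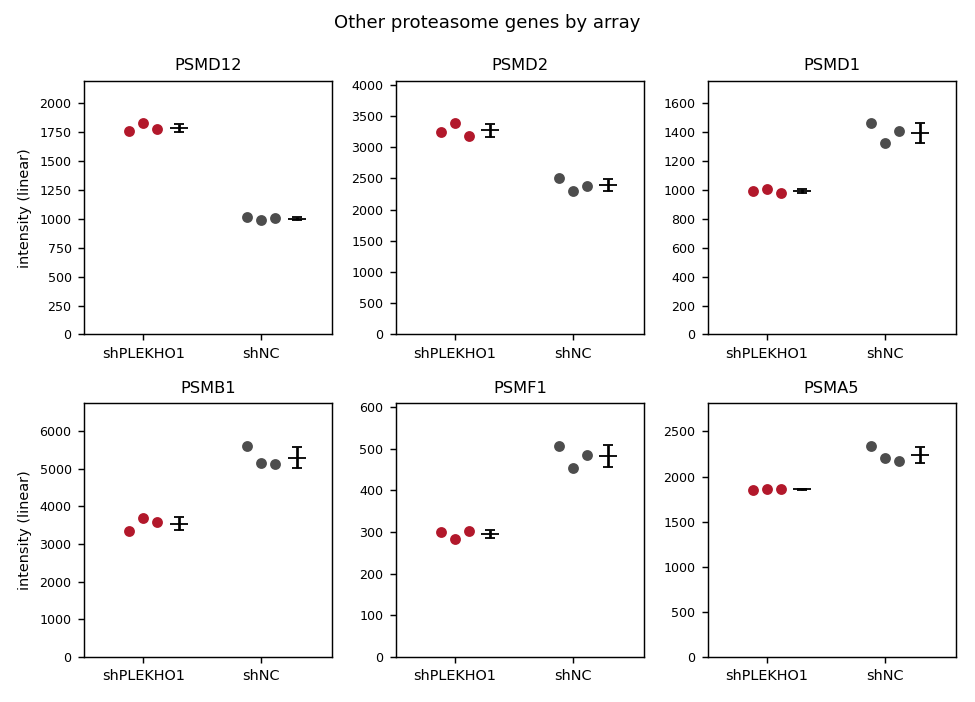
Linear intensity (y axis, from 0) on each array for 6 further proteasome genes that changed, shPLEKHO1 left and shNC right, with mean and SD (n = 3 arrays per group). PSMD12 and PSMD2 are higher in shPLEKHO1 cells, at 1756 to 1824 and 3183 to 3383, and PSMD1, PSMB1, PSMF1 and PSMA5 are lower, none with overlap.

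PSMF1, a protein that binds the core particle and inhibits it in the test tube, had the largest fall outside the beta ring. It read 300.3, 283.0 and 301.7 with shPLEKHO1, against 507, 455 and 485 with shNC. No shPLEKHO1 array came near the shNC values. PSMF1 was 1.63-fold lower (-0.71 ± 0.06, adjusted p = 5.15e-05), and all 6 of its probe sets fell, between -0.35 and -0.71. The activator subunits PSME1 (0.05) and PSME2 (-0.09), which open the core's gate and are induced by interferon, did not pass (adjusted p = 0.517 and 0.226). PSME4, an activator of nuclear proteasomes, was at 0.12 by its brightest probe set and just missed the threshold (adjusted p = 0.0528), and its other probe sets disagreed, with 1 that rose and 2 that fell.

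Assembly factors were mixed. PSMG2, which pairs with PSMG1 to build the alpha ring, read 1666, 1738 and 1633 with shPLEKHO1, against 1520, 1374 and 1333 with shNC. It was 1.19-fold higher (0.25 ± 0.05, adjusted p = 0.00676) without overlap, while its partner PSMG1 was at 0.04 (adjusted p = 0.663). PSMG3, which pairs with PSMG4, read 175.6, 199.8 and 182.8 with shPLEKHO1, against 229.7, 218.1 and 224.1 with shNC. It was 1.19-fold lower (-0.25 ± 0.05, adjusted p = 0.00561), again without overlap. PSMG4 was at -0.16 by its brightest probe set and did not pass, and of its 6 probe sets 2 fell and 1 rose.

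Of the chaperones that assemble the base, PSMD10 (gankyrin, a protein also known as an oncogene product of liver cancer) rose. It read 963, 1013 and 1001 with shPLEKHO1, against 913.8, 829.8 and 862.2 with shNC. All shPLEKHO1 arrays were higher, PSMD10 was 1.13-fold up (0.18 ± 0.04, adjusted p = 0.0146), and 1 of its 2 probe sets passed. Its call was lost when shNC replicate 2 was left out (adjusted p = 0.0546), and likewise when shPLEKHO1 replicate 3 was (0.0539). PSMD5 (0.05) and PSMD9 (0.07) did not pass by their brightest probe sets. Of the non-subunit genes that share the name, PSMC3IP, a factor of meiotic recombination, was 1.26-fold higher (0.33 ± 0.05, adjusted p = 0.00121). PSME3IP1 was at -0.05 by its brightest probe set and did not pass. Of its 3 probe sets 1 fell (-0.47), and their mean was at -0.21 (adjusted p = 0.00375).

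Over all 105 probe sets of the 43 genes, each tested on its own, 26 rose, 20 fell and 59 did not pass (43.8% called), where 33.0% of all 44988 probe sets were called. Of 31 genes with several probe sets, 3 had at least 1 that rose and 1 that fell (9.68%): PSMC2, PSME4 and PSMG4. Over the whole table this held for 461 of 11734 genes with several probe sets (3.93%). The second probe set of PSMC2 averaged 36.3 with shPLEKHO1 and 82.0 with shNC and fell by 1.17 on the log2 scale, opposite to the bright one, and the mean of its 3 probe sets was at -0.365 (adjusted p = 0.0102). The second probe set of PSMD9, at 35.4 with shPLEKHO1 and 61.3 with shNC, fell by 0.77, while the bright one did not pass. With the mean of all probe sets, PSMD9 was at -0.35 (adjusted p = 0.000808) and PSME4 at -0.20 (adjusted p = 0.0325), so that 10 proteasome genes fell by that reading, against 7 by the brightest probe set. A dim probe set of PSMA1 rose (0.44) where the bright one was level. With the mean of all probe sets, 11 proteasome genes rose. Among them were PSMA1 (0.22, adjusted p = 0.0118), PSMA3 (0.11, adjusted p = 0.0426) and PSMD3 (0.11, adjusted p = 0.0404), which did not pass by their brightest probe sets. The number of probe sets that rose was 17 without shNC replicate 2 and 17 without shPLEKHO1 replicate 3.

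**Figure D4:**
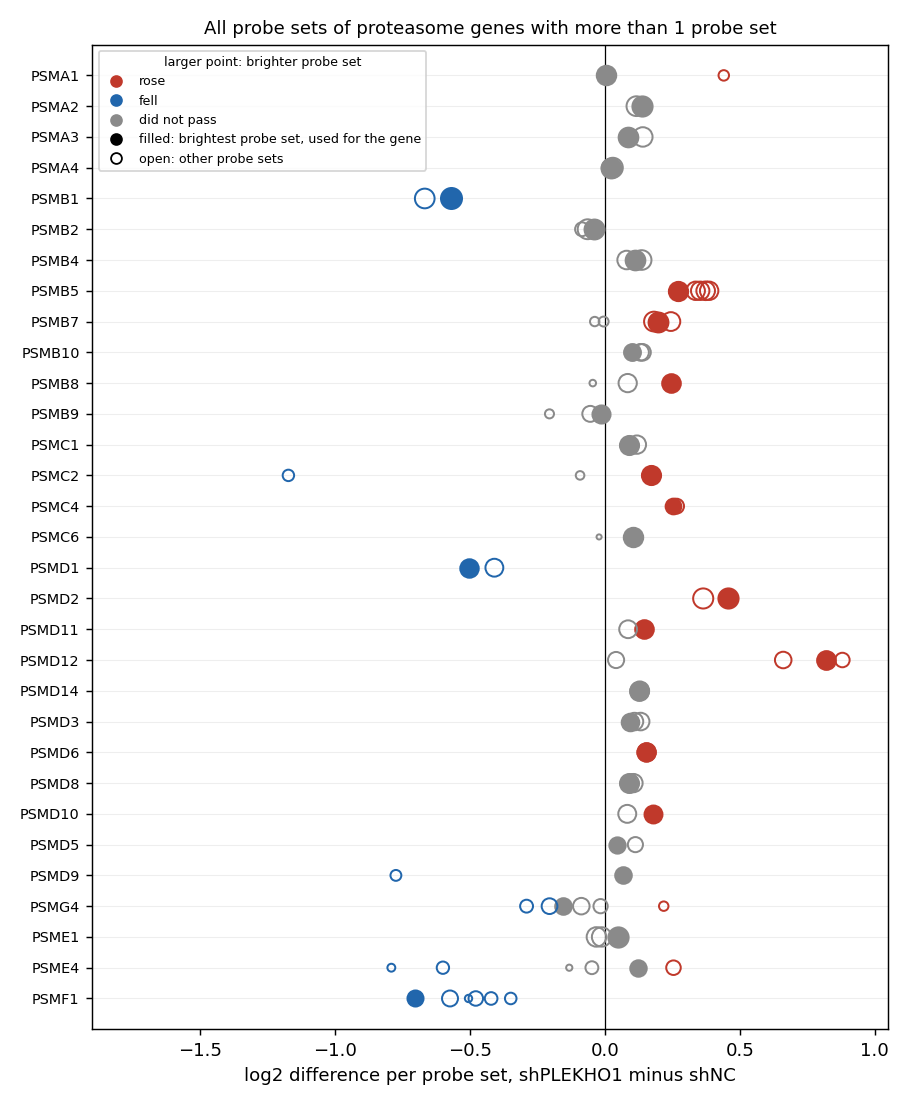
Log2 difference (shPLEKHO1 minus shNC, x axis) of every probe set of the 31 proteasome genes with more than 1 probe set, coloured by its own test, with larger points for brighter probe sets and filled points for the probe set used for the gene. All probe sets of PSMB5, PSMD2 and PSMC4 lie right of 0 and all of PSMB1, PSMD1 and PSMF1 left of it, while PSMC2, PSME4 and PSMG4 have calls on both sides.

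Genes that work with the proteasome under other names were read from lists, and 45 of 52 were measured. Of these 45, 20 rose, 11 fell and 14 did not pass (68.9% called, where 34.1% of all genes tested were), with a median log2 difference of 0.10. They were bright as well, with their median brightness at percentile 83 of all genes, and of the 1814 brightest genes 56.1% were called. The lists were also chosen with earlier results of these data known. The number of these 45 genes that rose was 13 without shNC replicate 2 and 12 without shNC replicate 3. Among the 6 measured genes that govern transcription of proteasome genes, 4 rose and 1 fell by their brightest probe sets (83.3% called, where 34.1% of all genes tested were). The one that fell was NFE2L1 itself, at 751 ± 29.6 with shPLEKHO1 and 1241 ± 23.2 with shNC (SD, n = 3 each). NFE2L1 was 1.66-fold lower (-0.73 ± 0.05, adjusted p = 2.06e-05), and all 6 of its probe sets fell. NGLY1, the glycanase that strips sugars from NFE2L1 so that it can act, was 1.47-fold higher (0.55 ± 0.05, adjusted p = 6.15e-05). The small MAF partner MAFF was 1.40-fold higher (0.48 ± 0.07) by 1 of 2 probe sets. NFE2L2, the oxidative stress regulator that binds the same element, was higher (0.19 ± 0.05, adjusted p = 0.0204). Its call was lost without shNC replicate 3, shPLEKHO1 replicate 1 or shPLEKHO1 replicate 3 (adjusted p from 0.0693 to 0.0765) and with the mean of its probe sets (0.13, adjusted p = 0.0962). DDI2, also among the 4 that rose, was dim, at 43.7 with shPLEKHO1 and 35.4 with shNC (adjusted p = 0.0408). Of its 4 probe sets 1 rose, and their mean was at 0.11 (adjusted p = 0.0991).

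Of subunits and assembly factors named otherwise, POMP, which matures the beta ring, rose (0.22 ± 0.05, adjusted p = 0.00618), and PAAF1, a base chaperone, fell by all 3 of its probe sets (-0.25 ± 0.04, adjusted p = 0.00266). Of 10 proteasome-bound enzymes and adaptors 5 rose and 2 fell by their brightest probe sets (70% called, where 34.1% of all genes were). For USP14 and ECPAS, counted among the 5, other probe sets fell, and the mean of all probe sets was at -0.78 for USP14 (adjusted p = 3.36e-06) and -0.11 for ECPAS (adjusted p = 0.285). ZFAND5, a zinc finger protein that stimulates the proteasome, was 1.81-fold lower (-0.85 ± 0.04, adjusted p = 6.49e-06), by all 9 of its probe sets. PITHD1 fell (-0.56 ± 0.05), and the deubiquitinase UCHL5 (0.29 ± 0.04) and the phosphatase UBLCP1 (0.31 ± 0.06) rose.

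Ubiquitin supply showed 2 rises and 3 falls in 7 measured genes by their brightest probe sets (71.4% called, where 34.1% of all genes tested were). UBA6, an alternative ubiquitin-activating enzyme, was 1.46-fold higher (0.55 ± 0.05, adjusted p = 9.36e-05). The main activating enzyme UBA1 was higher too (0.17 ± 0.05, adjusted p = 0.0195) but lost its call without shNC replicate 2, shNC replicate 3 or shPLEKHO1 replicate 2 (adjusted p from 0.0564 to 0.0648) or with the mean of its probe sets (0.12, adjusted p = 0.0847). The shuttle factors RAD23B (-0.27 ± 0.05) and UBQLN1 (-0.19 ± 0.04) fell by their brightest probe sets, but each had 2 probe sets that rose, and the mean of its probe sets was at 0.0071 for RAD23B (adjusted p = 0.921) and 0.24 for UBQLN1 (adjusted p = 0.00118). The polyubiquitin gene UBB did not pass (-0.05).

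VCP, the ATPase that pulls ubiquitin-tagged proteins out of complexes and membranes, was 1.34-fold lower (-0.42 ± 0.04, adjusted p = 0.000175), by all 4 of its probe sets. Its cofactor FAF1 was 1.68-fold lower (-0.74 ± 0.05), while FAF2 (0.24 ± 0.05, and 0.46 by the mean of its 6 probe sets) and UFD1 (0.17 ± 0.05) rose. UFD1 lost its call without each array but shNC replicate 1 (adjusted p from 0.0668 to 0.108) and with the mean of its probe sets (0.08, adjusted p = 0.222). Of 11 peptidases and transporters that handle peptides after the proteasome, 5 rose and 2 fell (63.6% called, where 34.1% of all genes tested were). The oligopeptidase NLN was 1.71-fold higher by its brightest probe set (0.78 ± 0.05, adjusted p = 2.32e-05). Of its 3 probe sets 2 rose, and their mean was at 0.36 (adjusted p = 0.000258). TPP2 (0.53 ± 0.07, and 0.35 by the mean of its probe sets), the peptide transporter gene TAP2 (0.43 ± 0.07) and BLMH (0.28 ± 0.05) rose as well. Of 3 measured interferon regulators of the immunoproteasome, NLRC5 rose (0.22 ± 0.06, adjusted p = 0.0306) but lost its call without shNC replicate 1, shNC replicate 2, shPLEKHO1 replicate 1 or shPLEKHO1 replicate 3 (0.0735 to 0.103). IRF1 (-0.16) and CIITA (0.00) did not pass.

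**Figure D5:**
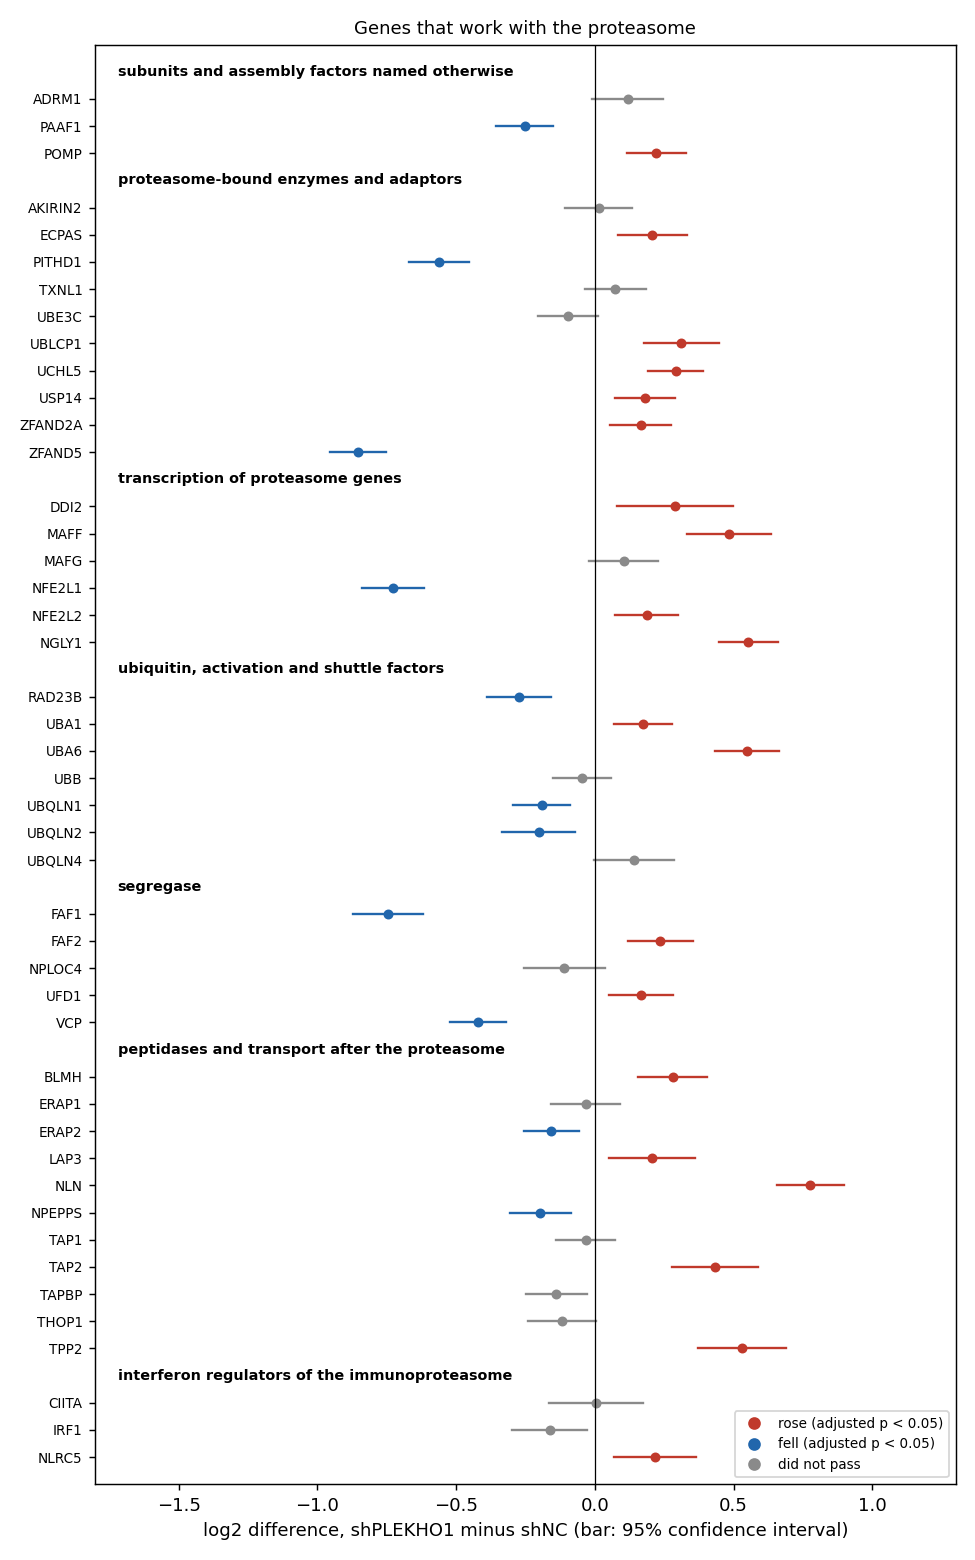
Log2 difference (shPLEKHO1 minus shNC, x axis) of the 45 measured genes that work with the proteasome, by list, with 95% confidence intervals from limma and n = 3 arrays per group. ZFAND5 (-0.85), FAF1 (-0.74) and NFE2L1 (-0.73) lie farthest left and NLN (0.78) farthest right.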

How the data were processed

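RNA of 6 samples of 786-O cells was hybridised to single-colour Affymetrix arrays after Trizol extraction and biotin labelling, per the labels' protocols. The authors deposited linear intensity values, 1 per probe set and array, and the submitters' processing notes name Affymetrix Expression Console. The software version, the summary algorithm and whether arrays were normalized: not given in the sources used here.

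Values were taken as log2(intensity + 1), with a pseudocount of 1 that understates the change of dim genes, and quantile normalized over 49395 probe sets. Probe sets with 1 gene symbol that were no controls (44988) were kept, symbols were updated through RefSeq (GRCh38.p14; 44961 matched, 27 kept the array's name), and each of 18132 genes was read from its brightest probe set. The test was the moderated fit of limma 3.58.1 (lmFit, then eBayes; R 4.3.3), with no covariate, p-values adjusted over genes by Benjamini-Hochberg, and calls made under 0.05 (4 residual and 3.63 prior degrees of freedom). Motifs and figures were made with Python 3.11.15 and matplotlib 3.10.9. Arrays of a group correlated at 0.998 to 0.999 over genes. The number of arrays limits the precision.

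The members, the gene lists and the naming rule were chosen with earlier results of these data known. Named with the value on each array were the members that changed and the 6 catalytic subunits, and from each other list up to 4 called genes with the smallest p. Tested on data simulated from the arrays' spread, 18132 genes with 50 genes changed at each size, the fit recovered 28% at a log2 change of 0.25, 64% at 0.5, 94% at 1 and 100% at 2. The simulation gave 147 calls, where the data gave 6179. Its adjusted threshold was therefore stricter, and these shares do not give the share of changes missed in the data. Settings tried as alternatives were the normalization, the pseudocount, a filter on the lowest 30%, a variance trend, weights per array, a block for replicate number, the mean of probe sets, and leaving out each array. Of the listed genes, 4 proteasome genes and 7 others were not analysed here.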

Additional observations from a re-analysis of the deposited data

How the results depend on the processing

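All 7 falls and 5 of the 12 rises among proteasome genes kept direction and call under all 14 alternatives, and PSMB6 ranged from -1.15 to -1.10. For PSMA5, PSMB6, PSMD4, PSMG3 and PSMG2, with 1 probe set each, the mean of probe sets could not alter the value. With 1 array left out, 6 to 9 proteasome genes, 17 to 21 of their probe sets and 12 to 17 related genes rose. A variance trend with robust fitting gave 41 rising proteasome probe sets. The replicate block gave 6 rising proteasome genes, 17 rising probe sets and 12 rising related genes. Same-numbered arrays did not deviate together (r = -0.163, -0.156 and -0.0469 over genes). With 3 arrays per group this cannot settle whether same-numbered arrays were handled together. With the mean of all probe sets, whose members disagree in these genes, PSMC2 turned to -0.365, RAD23B to 0.0071, UBQLN1 to 0.24, USP14 to -0.78, ECPAS to -0.11, PSMD9 to -0.35 and PSME4 to -0.20, and 10 proteasome genes fell. The same setting put NLN at 0.36, TPP2 at 0.35 and FAF2 at 0.46. By it 11 proteasome genes rose, PSMA1, PSMA3 and PSMD3 among them. The median log2 difference of the proteasome genes ranged from 0.06 to 0.10 and that of all genes from 0.00 to 0.03. The cause of the other shifts was not tested. Signal near background limits PSMA8 and PSMB11.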

Other observations

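USP14, a deubiquitinase bound to the base of the cap, was chosen here after its values were seen. Its brightest probe set averaged 1096 ± 27.2 with shPLEKHO1 and 956 ± 14.1 with shNC (SD, n = 3 each) and rose by 0.18 ± 0.05 on the log2 scale. Its 3 other probe sets fell together, at -1.21, -1.07 and -1.03, and the dimmest of them averaged 67.4 with shPLEKHO1 and 139 with shNC. The mean of the 4 probe sets was at -0.78. UBQLN1 showed the reverse order, with a bright probe set that fell (-0.19) and others at 0.65 and 0.24. RAD23B had 3 probe sets that fell, at -0.27, -0.21 and -0.84, and 2 that rose, at 0.71 and 0.65. Which transcripts these probe sets match was not examined.

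The immunoproteasome gene PSMB8 lies next to TAP2 on chromosome 6, with TAP1 on its other side beyond an antisense RNA, in the order of RefSeq GRCh38.p14. TAP2 rose by all 4 of its probe sets (0.43 ± 0.07) and PSMB8 by 1 of 3 (0.24 ± 0.05), while TAP1 was at -0.03 and did not pass (adjusted p = 0.655).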
